A study of Homo sapiens with 36 samples.

Results

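YAP and TAZ are transcriptional co-activators that are held back by the Hippo kinase pathway and that reach DNA mainly through the TEAD family of transcription factors. A small group of genes that respond directly to them is used across tissues as a readout of their activity. Described here are 10 such genes, out of 60725 Ensembl genes quantified, chosen by name from published target lists. CCN1 and CCN2 encode secreted matricellular proteins, ANKRD1 an ankyrin-repeat cofactor best known from muscle, AXL the receptor tyrosine kinase for GAS6, F3 tissue factor, which starts blood coagulation, and NT5E the ecto-enzyme CD73, which makes adenosine from AMP. CRIM1 encodes a membrane protein that binds bone morphogenetic proteins, FJX1 a secreted protein of the four-jointed family, and NUAK2 a kinase related to AMPK, and ARHGEF17 completes the list. The 10 genes stand on GRCh38 at 10 separate places, among them CCN1 at chr1:85580761-85584589 on the plus strand, CCN2 at chr6:131948176-131951372 on the minus strand and ANKRD1 at chr10:90912096-90921087 on the minus strand. AXL (chr19:41219223-41261766), CRIM1 (chr2:36355778-36551135), NT5E (chr6:85449584-85495791), FJX1 (chr11:35618460-35620865) and ARHGEF17 (chr11:73308276-73369388) lie on plus strands, and F3 (chr1:94529173-94541759) and NUAK2 (chr1:205302063-205321745) on minus strands. CCN2, AXL, CRIM1 and ARHGEF17 overlap annotated genes on the opposite strand, and since the counting is not stated to use strand their reads cannot be told apart from those of these partners.

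RNA was sequenced from 36 libraries in 18 groups of 2. MCF-10A ER-Src (ER-Src) is an immortalized breast epithelial line carrying v-Src as a fusion with the hormone-binding part of the estrogen receptor, which lets tamoxifen (TAM) switch the oncoprotein on, while cells in ethanol (ETH), the vehicle, stay non-transformed. For transformation the sample labels name tamoxifen together with AZD0530, a Src inhibitor, with the same text on every sample, and the methods give more than 1 treatment time without saying which the RNA libraries had. Under each treatment cells received small interfering RNA (siRNA) for 1 of 4 genes, in groups called YAPi, TAZi, STAT3i and JUNBi after their target, or a control siRNA (Ctrli), which makes 10 groups. MDA-MB-231, a triple-negative breast cancer line, was studied in 2 sets, the first with Ctrli, YAPi, TAZi, YAP and TAZ siRNA together (YAPi_TAZi) and siRNA against the TEAD family (TEADi), and the second with Ctrli, JUNBi and STAT3i. Each model is 1 established line, and the labels do not say that the libraries of a group came from separate cultures, so p-values measure the spread between these libraries, which may be technical.

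Promoter sequences were available for 7 of the 10 genes, and 4 of those that hold letters recognized by the factors that were knocked down are shown. Each is the 250 bases before the annotated start in RefSeq (GRCh38.p14), written 5′ to 3′ along the gene. Capitals mark GGAATG or its reverse complement CATTCC, the core bound by TEAD proteins, and TGANTCA. With any base at N, TGANTCA is a loose form of the letters bound by AP-1 dimers that include JUNB, and not every match need be an AP-1 site.
CCN2, chr6:131951373-131951622, minus strand: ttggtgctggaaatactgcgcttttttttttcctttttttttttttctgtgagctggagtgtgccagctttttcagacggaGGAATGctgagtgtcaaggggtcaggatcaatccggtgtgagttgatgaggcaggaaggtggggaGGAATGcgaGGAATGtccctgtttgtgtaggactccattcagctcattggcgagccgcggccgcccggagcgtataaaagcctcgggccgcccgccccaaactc
ANKRD1, chr10:90921088-90921337, minus strand: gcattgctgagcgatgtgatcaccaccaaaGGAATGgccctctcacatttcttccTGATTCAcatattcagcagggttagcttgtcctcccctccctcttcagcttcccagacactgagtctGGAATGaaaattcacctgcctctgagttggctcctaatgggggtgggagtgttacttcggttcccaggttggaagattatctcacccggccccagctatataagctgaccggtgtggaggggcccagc
NUAK2, chr1:205321746-205321995, minus strand: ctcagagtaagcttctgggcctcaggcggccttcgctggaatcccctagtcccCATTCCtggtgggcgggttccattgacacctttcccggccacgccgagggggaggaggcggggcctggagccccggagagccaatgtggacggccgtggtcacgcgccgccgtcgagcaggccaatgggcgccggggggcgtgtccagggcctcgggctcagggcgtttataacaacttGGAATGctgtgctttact
F3, chr1:94541760-94542009, minus strand: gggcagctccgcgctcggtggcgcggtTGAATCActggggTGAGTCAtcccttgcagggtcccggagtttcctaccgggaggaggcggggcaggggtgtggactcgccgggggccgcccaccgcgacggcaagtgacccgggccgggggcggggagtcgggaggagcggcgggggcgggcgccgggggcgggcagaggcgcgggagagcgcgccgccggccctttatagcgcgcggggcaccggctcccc
The CCN2 promoter held GGAATG 3 times, at 169, 104 and 95 bases before the start. The ANKRD1 promoter held it 2 times, at 220 and 128 bases, and TGATTCA at 195 bases. In NUAK2 the TEAD letters stood at 197 and 18 bases, and F3 held TGAATCA and TGAGTCA at 223 and 210 bases but no TEAD core. Of 35116 promoters of the same length, 11.9% held at least 1 TEAD core on either strand, 0.94% at least 2 and 0.0826% at least 3, while 6.57% held TGANTCA and 6.57% TTCNNNGAA, the letters bound by STAT proteins. The motifs do not overlap one another in these windows. AXL had a TEAD core in 1 of its 2 windows, FJX1 and NT5E had none of the 3 motifs, and TTCNNNGAA was in none of the windows of these genes. A match describes letters and not a bound site.

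Depth, the total of the expected counts, was 6419720 to 19161700 per library in ER-Src, 7290499 to 18076158 in MDA-MB-231 set 2, and 13456784 and 13534560 in the set 1 controls against 1411304 to 2784605 in the 8 set 1 knockdowns. The set 1 controls also held 0.0028% and 0.00407% of their counts in 7 abundant RNAs without a poly(A) tail, against 8.71% to 11.8% in the set 1 knockdowns, so that knockdown and library type cannot be told apart there and the set 1 knockdowns were compared only among themselves. Within them the replicate number went with the length that RSEM took off each transcript to give its effective length, 48.0 bases in replicate 1 and 74.6 in replicate 2. For that reason values within each replicate are given, as well as a fit that holds the replicate number as a block. ER-Src carried KRT5, a basal keratin, at 1012 to 2622 TPM (a share of all transcripts that allows for gene length), and in set 2 and the set 1 controls KRT5 was at 0. In the 4 set 1 knockdown libraries numbered 1 it stood at 5.99 to 11.5 TPM, 0.376% to 0.721% of its ER-Src mean, and ESR1, part of the ER-Src fusion and otherwise at 0.1 TPM or less in MDA-MB-231, stood at 0.49 to 2.57 TPM, 0.334% to 1.75% of its mean. The KRT5 share of each target gene's highest ER-Src level came to at most 9.01% of its TPM in these libraries (ANKRD1 in YAPi_TAZi), and the ESR1 share to at most 11.6% (ANKRD1 in TEADi), apart from NUAK2 in TEADi at 27.1%. The part of such RNA in the results was not tested. Of the other epithelial markers looked at, KRT14, KRT17, TP63 and CDH1 were higher in ER-Src than in set 2 and the set 1 controls. EPCAM overlapped, and ITGB4 was lower (22.3 to 53 against 69.8 to 146 TPM). Of the mesenchymal markers VIM and CD44 were lower in ER-Src and SPARC higher (18.1 to 44.8 against at most 1.12). ZEB1 was at 14.8 to 15.3 TPM in the set 1 controls, 0.82 to 1.44 in set 2 and 2.37 to 5.74 in ER-Src. In ER-Src the knockdowns were visible in their targets in TAM: YAP1 was 5.63-fold lower in YAPi, WWTR1 (which encodes TAZ) 4.68-fold lower in TAZi, STAT3 6.31-fold lower in STAT3i and JUNB 4.09-fold lower in JUNBi, all at adjusted p of 5.9e-07 or less. In ETH the JUNB difference was 2.23-fold and was not called without a block (adjusted p = 0.064), while in the blocked fit it was 2.47-fold and called (0.0021). In set 1 TEAD1 and TEAD2 were 2.35-fold and 13.3-fold lower in TEADi than in YAPi, and TEAD3 did not differ at the threshold (adjusted p = 0.96). For YAP1, WWTR1 and TEAD4 in set 1, and for JUNB and STAT3 in set 2, the depth of knockdown is not given here.

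The target genes were expressed over a wide range of levels. In the ER-Src ETH controls CRIM1 was the most abundant of the 10, at 49.0 and 47.3 TPM, followed by NT5E at 27.9 and 19.7, F3 at 22.3 and 16.5, AXL at 19.8 and 18.2 and CCN1 at 18.96 and 16.34. CCN2 and ANKRD1 were near the lower end of the range, CCN2 at 2.08 and 1.5 TPM and ANKRD1 at 1.29 and 1.45 TPM. In the set 2 controls of MDA-MB-231, AXL was the most abundant at 188 and 196 TPM, CCN1 stood at 185 and 132, ANKRD1 at 48.6 and 25.2 and CCN2 at 25.4 and 11.9, and CRIM1 was at 5.95 and 2.72. The set 1 controls of the same line held CRIM1 at 52.5 and 49.9 TPM, close to its level in the ER-Src ETH controls. In the share of counts in the 7 RNAs named above, the set 1 controls were like set 2 (0.0036% to 0.0112%). They were unlike ER-Src (9.43% to 11.7%). The cause of the CRIM1 difference between the set 1 and set 2 controls was not tested. By group mean CCN1, AXL, CCN2, ANKRD1, NT5E, FJX1 and ARHGEF17 were higher in both sets of MDA-MB-231 controls than in the ER-Src controls. CRIM1 and NUAK2 were higher in the set 1 controls and lower in the set 2 controls. F3 was higher in the set 1 controls, and in set 2 its 30.3 TPM lay between the ER-Src ETH (19.4) and TAM (30.7) controls. Cell line and library type cannot be told apart in these differences. NUAK2 was the lowest of the 10 in the ER-Src ETH and the set 2 controls, with 0.77 to 0.92 and 0.36 to 0.60 TPM. TPM in ER-Src and the set 1 knockdowns is lowered by the 7 RNAs named above: without them the mean of CCN1 in the ETH controls went from 17.6 to 22.4 TPM, and its mean in set 1 YAPi from 93.5 to 143 TPM.

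**Figure D1:**
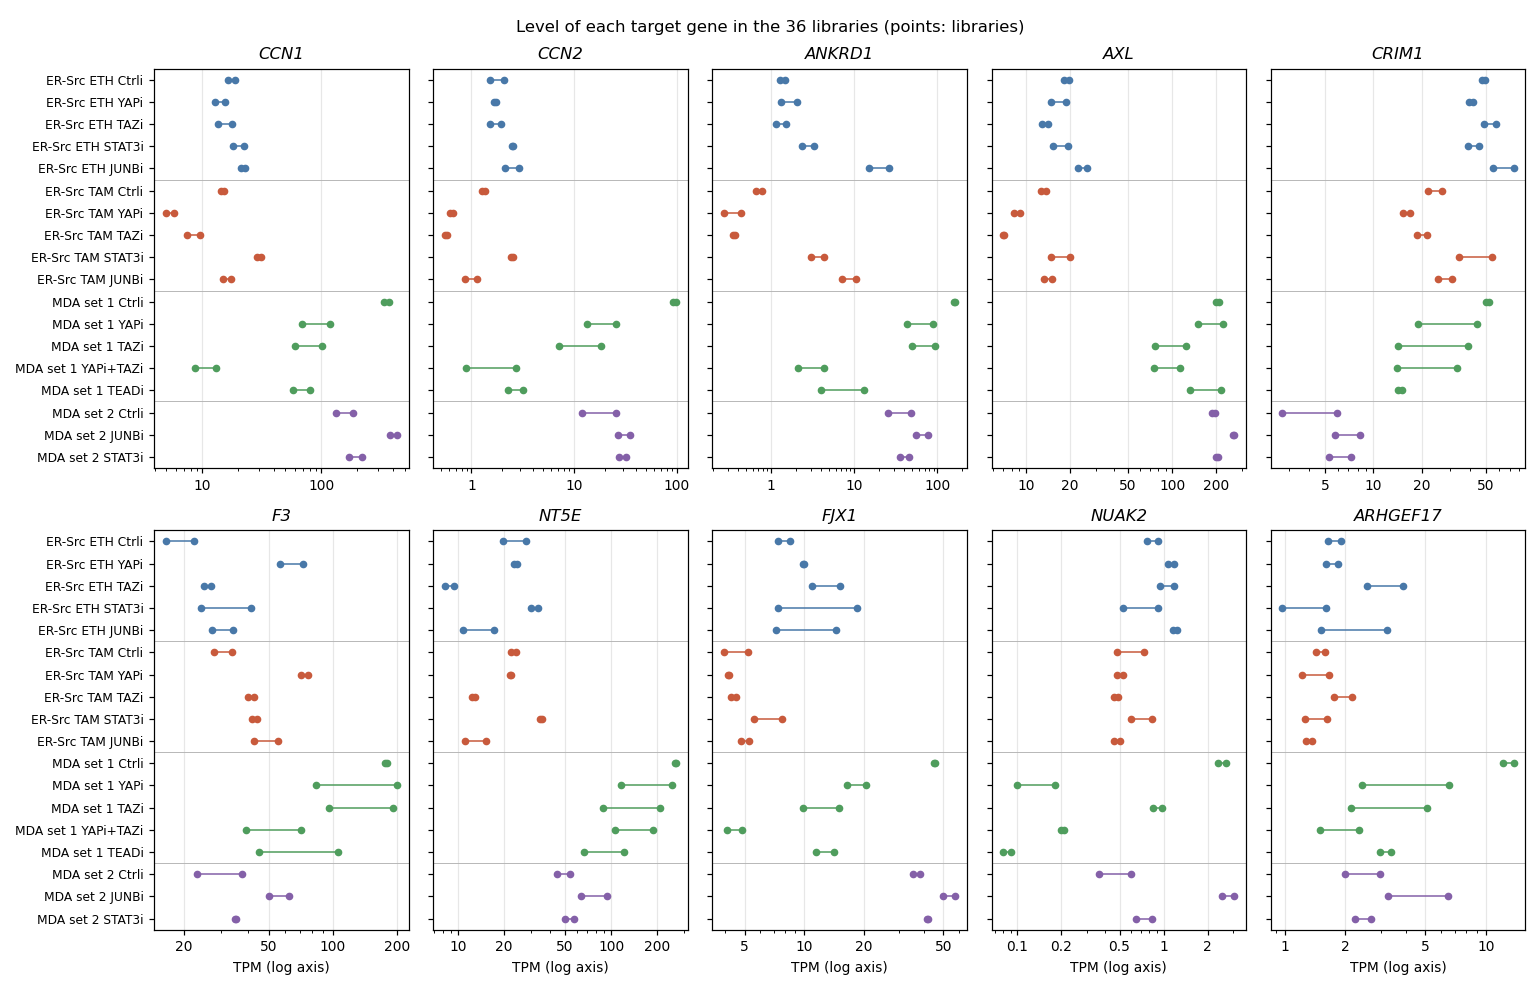
TPM of each of the 10 target genes (log axis, each panel with its own range) in the 36 libraries, by group. Points are libraries and a line joins the 2 of a group. CCN2 and ANKRD1 reach at most 2.93 and 26.1 TPM in ER-Src, while NUAK2 peaks at 3.05 TPM, in set 2 JUNBi.

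To see whether transformation alone moved the target genes, the TAM controls were compared with the ETH controls. F3 rose and CRIM1 fell, and the other 8 were not called at an adjusted p under 0.01. Of all genes tested, 6.11% were called. F3 was at 33.6 and 27.7 TPM in TAM against 22.3 and 16.5 in ETH, 1.75-fold higher on the count scale (log2 difference 0.81, SE 0.15, adjusted p = 1.3e-06, DESeq2). CRIM1 was at 26.6 and 21.9 TPM in TAM against 49.0 and 47.3 in ETH, and its counts fell by 0.56 on the log2 scale (SE 0.10, adjusted p = 3.5e-06). The libraries of the 2 treatments did not overlap for either gene. For CCN1, the difference was 0.10 with a 95% interval of -0.21 to 0.41. ANKRD1 was at 0.66 and 0.78 TPM against 1.29 and 1.45, and at these low counts its log2 difference of -0.76 had an interval of -1.77 to 0.25. Leaving out a library ended the F3 call without TAM control 1 (adjusted p = 0.018) or ETH control 2 (0.033), and the CRIM1 call without ETH control 1 (0.044), ETH control 2 (0.023) or TAM control 2 (0.011).

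With YAP knocked down in transformed cells, CCN1 and AXL fell and F3 rose. These were 3 of the 10 genes, where 10.9% of all genes were called, and the median log2 change was -0.28 over the 10 genes and 0.01 over all genes tested. CCN1 was at 5.77 and 4.95 TPM in YAPi against 14.47 and 15.18 in the controls, a change of -1.29 (SE 0.18, adjusted p = 4.8e-11), or 2.45-fold. AXL was at 9.11 and 8.24 TPM against 12.7 and 13.6, a change of -0.47 (SE 0.14, adjusted p = 0.0067). F3 went the other way, at 70.7 and 76.5 TPM against 33.6 and 27.7, a change of 1.38 (SE 0.13, adjusted p = 2.2e-22). Neither the CCN2 libraries (0.62 and 0.66 against 1.34 and 1.27 TPM) nor those of ANKRD1 (0.27 and 0.43 against 0.66 and 0.78) overlapped between the groups, but the changes of -1.03 (interval -1.89 to -0.17, adjusted p = 0.094) and -1.01 (interval -2.30 to 0.28, adjusted p = 0.35) were not called. NT5E, at 22.3 and 21.8 against 24.1 and 22.3 TPM, differed by 0.06 with an interval of -0.21 to 0.33. The CCN1 and F3 calls held when any of the 4 libraries was left out, and the AXL call did not (adjusted p from 0.22 to 0.41).

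With TAZ knocked down in transformed cells, CCN1, AXL and NT5E fell and none of the 10 rose. The count of 3 stands beside 3.53% of all genes called, 1.74% lower, and the medians were -0.65 over the 10 genes and -0.00 over all genes tested. NT5E was at 12.3 and 13.0 TPM against 24.1 and 22.3 in the controls, a change of -0.88 (SE 0.13, adjusted p = 1e-09). AXL was at 6.99 and 7.06 TPM, the lowest values of this gene in ER-Src, with a change of -0.95 (SE 0.13, adjusted p = 3.8e-10). CCN1 was at 9.59 and 7.53 TPM, with a change of -0.81 (SE 0.19, adjusted p = 0.0011). The 3 genes were each below the controls in both libraries. CCN2, at 0.58 and 0.55 TPM, had a larger estimate of -1.35 (interval -2.24 to -0.46) at an adjusted p of 0.053. F3 was at 40.0 and 42.7 TPM with a change of 0.31 (adjusted p = 0.082). The CCN1 call was lost with edgeR (adjusted p = 0.021) and without TAM control 1 (0.039), TAM control 2 (0.17) or TAZi replicate 2 (0.55), while those of AXL and NT5E held in each of these.

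F3, NT5E and AXL were higher after YAPi than after TAZi. In a direct comparison of YAPi with TAZi in TAM, where 6.32% of all genes were called, F3 was 2.09-fold, NT5E 1.92-fold and AXL 1.4-fold higher in YAPi (log2 differences 1.06, 0.94 and 0.48, SE 0.12, 0.13 and 0.13, adjusted p = 7.9e-17, 7.1e-11 and 0.0044). In ETH, with 4.16% of all genes called, the same 3 genes were called in the same direction, F3 by 1.62 (SE 0.18, adjusted p = 3e-17), NT5E by 1.41 (SE 0.15, adjusted p = 4.3e-17) and AXL by 0.54 (SE 0.14, adjusted p = 0.0051). CCN1 did not differ between YAPi and TAZi at the threshold, with -0.48 in TAM (interval -0.87 to -0.09, adjusted p = 0.12) and 0.15 in ETH (interval -0.20 to 0.49). The F3 and NT5E calls held without any of the libraries, and the AXL call was lost without each of them, at adjusted p of 0.098 to 0.39 in TAM and 0.052 to 0.45 in ETH. With edgeR the AXL call in ETH was lost too (adjusted p = 0.036).

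In non-transformed cells YAPi was followed by called changes in F3 and CRIM1. F3 rose to 56.6 and 72.7 TPM against 22.3 and 16.5 in the controls, a change of 1.83 (SE 0.17, adjusted p = 1.6e-24), beside 11.4% of all genes called. CRIM1 was also called, at 0.36 (SE 0.11, adjusted p = 0.0064), although its TPM was 41.3 and 39.4 in YAPi against 49.0 and 47.3. The 2 scales differ in sign. RSEM gave CRIM1 an effective length of 3892 and 3473 bases in YAPi and of 2535 and 2195 bases in the controls, and with these lengths as offsets its log2 change was -0.11. CCN1 was at 15.7 and 12.9 against 18.96 and 16.34 TPM, without overlap, but changed by 0.00 on the count scale (interval -0.30 to 0.30). Its effective length was 2030 and 1964 bases in YAPi and 1618 and 1550 bases in the controls. CCN2 and ANKRD1 had changes of -0.11 (interval -0.76 to 0.55) and 0.25 (interval -0.53 to 1.04). The CRIM1 call was lost with edgeR (adjusted p = 0.025), with the block (0.026, beside 8.13% of all genes) and without each of the 4 libraries (0.05 to 0.38), and the F3 call held.

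With TAZi in ETH, NT5E and AXL fell, as they did in TAM, beside 5.53% of all genes called. NT5E was at 8.21 and 9.44 TPM against 27.9 and 19.7, a change of -1.13 (SE 0.15, adjusted p = 4.9e-11), and these were its lowest values in ER-Src. AXL was at 12.9 and 14.3 TPM against 19.8 and 18.2, a change of -0.47 (SE 0.13, adjusted p = 0.0066). The groups did not overlap for either gene. CCN1 changed by -0.14 (interval -0.46 to 0.19) and CCN2 by -0.18 (interval -0.90 to 0.54). The AXL call was lost with edgeR (adjusted p = 0.023), with the block (0.056, beside 3.38% of all genes) and without each of the 4 libraries (0.14 to 0.49), and the NT5E call held.

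The test of the difference itself showed a stronger fall of CCN1 on YAPi in TAM than in ETH. The interaction, the log2 change in TAM minus that in ETH, was -1.31 for CCN1 (SE 0.21, interval -1.72 to -0.89, adjusted p = 5.7e-07), beside 0.496% of all genes called, and edgeR called it as well (adjusted p = 0.0072). CCN1 was the only one of the 10 called in that comparison in the DESeq2 fit, and leaving out any of the 8 libraries did not end the call. The estimates of the 10 ran from -1.31 to -0.23, with a median of -0.55 against 0.01 over all genes tested. Those of the 12 further targets described below ran from -0.81 to -0.06. For AXL the estimate was -0.54 (interval -0.88 to -0.20, adjusted p = 0.15). For TAZi, DESeq2 gave an adjusted p to only 4328 genes, which included 5 of the 10. CRIM1 was called at -0.54 (SE 0.14, adjusted p = 0.0068), beside 1.64% of those genes, with a change of -0.35 in TAM and 0.16 in ETH. That call was lost with edgeR (adjusted p = 0.1), with TMM size factors (0.013) and without each of 7 of the 8 libraries, all but ETH TAZi replicate 1 (0.028 to 0.13). The CCN1 interaction with TAZi was -0.69 (interval -1.17 to -0.21, adjusted p = 0.084). Medians over the 10 were -0.63 for TAZi, 0.31 for STAT3i and -0.40 for JUNBi, against 0.06, -0.02 and -0.02 over all genes tested. The interactions share their control libraries. None of the 10 had a called interaction with STAT3i or JUNBi in the DESeq2 fit of each comparison without a block. That fit called 1.4% and 0.287% of all genes. With edgeR none of the 10 was called for STAT3i, beside 13 genes higher and 43 lower of 15313. For JUNBi edgeR called none of all 15732 genes tested, so its result does not bear on the 10. With STAT3i 3 of the 10 (CCN1, ANKRD1 and CRIM1) had an unadjusted p under 0.05 in DESeq2, and with JUNBi 0 did. Among all genes with a p, 1153 of 34515 did with STAT3i and 903 of 34888 with JUNBi. CRIM1, at 0.63 with STAT3i (SE 0.19, adjusted p = 0.039), was called where DESeq2 was fitted to all groups at once (0.00012) and in the blocked fit (0.0021), which called 2.34% of all genes.

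**Figure D2:**
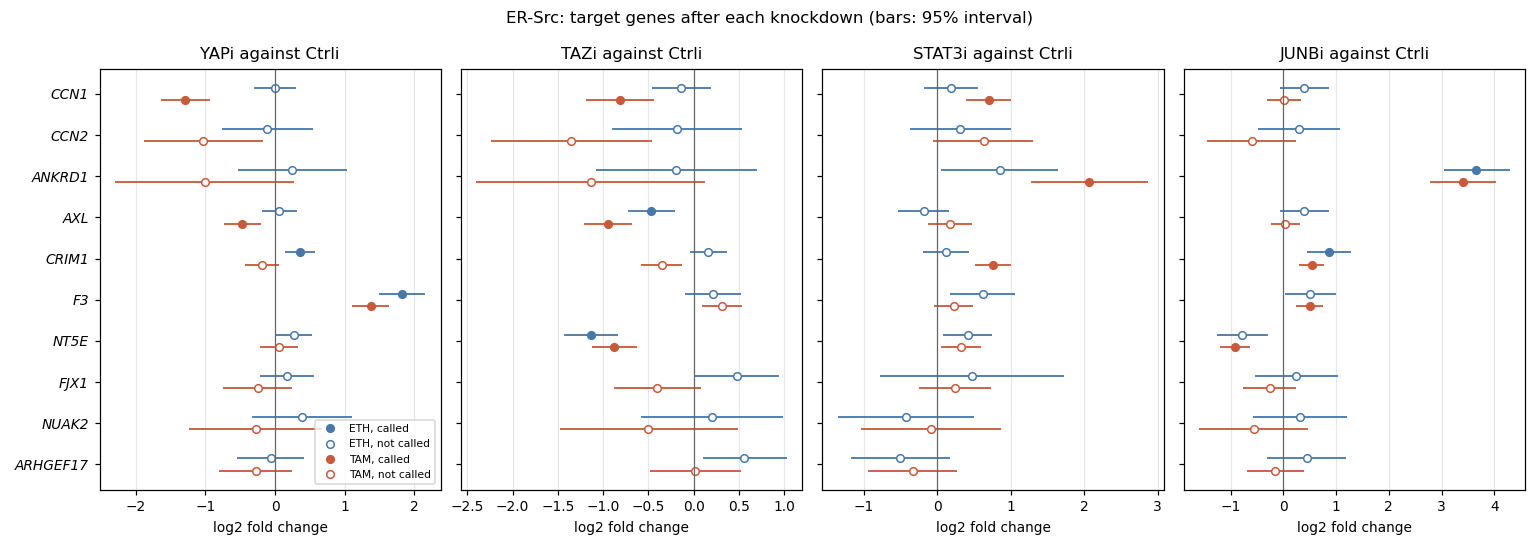
Log2 fold change on the count scale of each target gene after YAPi, TAZi, STAT3i or JUNBi against Ctrli in ER-Src, in ETH (blue) and TAM (red), with 2 libraries per group. Bars are 95% intervals and filled points passed an adjusted p under 0.01. CCN1 lies at -1.29 in TAM and 0.00 in ETH after YAPi, and ANKRD1 at 3.40 and 3.66 after JUNBi.

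JUNB knockdown in ER-Src went with the largest rise of any of the 10 genes there. ANKRD1 was at 10.5 and 7.18 TPM in TAM JUNBi against 0.66 and 0.78 in the TAM controls, a 10.6-fold difference (log2 3.40, SE 0.32, adjusted p = 5.1e-24). In ETH it was at 26.1 and 15.0 TPM against 1.29 and 1.45, 12.7-fold higher (log2 3.66, SE 0.32, adjusted p = 1.2e-27), although edgeR put this at an adjusted p of 0.011. The JUNBi libraries were the highest for ANKRD1 within each treatment, and the change in TAM minus that in ETH was -0.29 (interval -1.14 to 0.56). NT5E fell in TAM, to 15.2 and 11.1 against 24.1 and 22.3 TPM (log2 change -0.91, SE 0.15, adjusted p = 3.1e-08), and in ETH was at 17.2 and 10.7 against 27.9 and 19.7, a change of -0.78 that was not called without a block (adjusted p = 0.037) and was called with it (0.0095, beside 3.81% of all genes). CRIM1 was called in TAM (0.54, SE 0.12, adjusted p = 0.00032) and ETH (0.86, SE 0.21, adjusted p = 0.0028), and F3 in TAM (0.50, SE 0.13, adjusted p = 0.0032).

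Called with JUNBi were thus 4 of the 10 genes in TAM and 2 in ETH, beside 6.71% and 2.76% of all genes. CCN1 did not follow, at 17.4 and 14.8 against 14.47 and 15.18 TPM in TAM (change 0.02, interval -0.31 to 0.34), and CCN2 was at 1.13 and 0.87 against 1.34 and 1.27 TPM (change -0.60, interval -1.45 to 0.25). The ANKRD1 calls, and that of NT5E in TAM, held without any of the libraries. The F3 call was lost with edgeR (adjusted p = 0.02) and without each library (0.024 to 0.36). The CRIM1 calls were lost with edgeR (0.013 in TAM and 0.091 in ETH) and with effective lengths as offsets, where the log2 changes were 0.03 and 0.39, and they were lost without each library in TAM (0.011 to 0.1) and without each control in ETH (0.83 and 0.97).

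With STAT3 knocked down in TAM, CCN1, ANKRD1 and CRIM1 rose and none of the 10 fell, beside 8.09% of all genes called, 3.29% higher. CCN1 was at 29.0 and 31.3 TPM, its highest in ER-Src, against 14.47 and 15.18 in the controls, a change of 0.70 (SE 0.15, adjusted p = 0.00016). ANKRD1 was at 4.37 and 3.01 TPM against 0.66 and 0.78, a change of 2.07 (SE 0.41, adjusted p = 1.2e-05). CRIM1 was at 34.0 and 54.8 against 26.6 and 21.9 TPM, a change of 0.76 (SE 0.13, adjusted p = 5.8e-08). All 3 were above the controls in both libraries. JUNB itself was 5.3-fold lower in TAM STAT3i than in the controls (adjusted p = 2.5e-47), and its part in these results was not tested. NT5E was also above, at 35.6 and 34.1 TPM, with a change of 0.32 (adjusted p = 0.11). In ETH none of the 10 was called, beside 0.201% of all genes. An unadjusted p under 0.05 was found in 3 of the 10 (ANKRD1, F3 and NT5E), with changes of 0.85, 0.62 and 0.42. It was found in 613 of the 30996 genes with a p. With edgeR none of all 14520 genes tested was called, so its result does not bear on the 10. The CCN1 call in TAM was lost without TAM control 1 (adjusted p = 0.12) and STAT3i replicate 1 (0.031) or 2 (0.038), that of ANKRD1 without TAM control 1 (0.021) or STAT3i replicate 1 (0.17), and that of CRIM1 with effective lengths as offsets (0.53, adjusted p = 0.057).

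A direct comparison of STAT3i with JUNBi in TAM called 4 of the 10 genes, beside 5.98% of all genes. CCN1 was higher by 0.69 (SE 0.15, adjusted p = 0.00015), CCN2 by 1.24 (SE 0.34, adjusted p = 0.0049) and NT5E by 1.25 (SE 0.15, adjusted p = 7.4e-15) in STAT3i, and ANKRD1 differed by -1.31 (SE 0.24, adjusted p = 2.9e-06). CCN2 stood at 2.45 and 2.51 TPM in STAT3i and at 1.13 and 0.87 in JUNBi, with no overlap. In ETH 2 of the 10 were called, beside 1.7% of all genes. These were NT5E at 1.21 (SE 0.27, adjusted p = 0.0014) and ANKRD1 at -2.80 (SE 0.34, adjusted p = 1.1e-12). With edgeR neither was called (0.12 and 0.083), and none of all 14894 genes tested was. The block added AXL (-0.56, adjusted p = 0.0027) and CRIM1 (-0.73, adjusted p = 1.9e-07), beside 8.07% of all genes. In TAM the calls of CCN1 and CCN2 were lost without each library (adjusted p of 0.016 to 0.054 and 0.14 to 0.27) and that of ANKRD1 without STAT3i replicate 2 (0.014) or JUNBi replicate 1 (0.023). In ETH the NT5E call was lost without STAT3i replicate 1 (0.31) or 2 (0.23) or JUNBi replicate 2 (0.021). The STAT3i and JUNBi libraries differed from the other ER-Src libraries in the length taken off by RSEM (49.0 against 49.5 bases), so how those libraries were made and the knockdown cannot be told apart in their comparison with the controls. In these bulk libraries fewer cells that express a gene and less RNA per cell cannot be told apart either.

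FJX1, NUAK2 and ARHGEF17 were not called in any of the ER-Src comparisons. FJX1 ranged from 3.94 to 18.33 TPM over the 20 libraries, with the lowest value in a TAM control and the highest in ETH STAT3i replicate 2, whose partner library stood at 7.39. NUAK2 ranged from 0.46 to 1.24 TPM and ARHGEF17 from 0.97 to 3.86 TPM, levels at which the interval of NUAK2 for YAPi in TAM ran from -1.24 to 0.68 on the log2 scale.

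In MDA-MB-231 set 1, CCN1, CCN2, ANKRD1 and F3 were lower after knockdown of YAP and TAZ together than after knockdown of either one. Against YAPi, 7 of the 10 fell and none rose, beside 7.76% of all genes called, 5.1% lower, with a median log2 change of -1.37 over the 10 genes and -0.00 over all genes tested. Against TAZi, 4 fell and none rose, beside 6.69% of all genes, 4.47% lower, with medians of -1.42 and 0.01. FJX1, AXL and CRIM1 were called against YAPi but not against TAZi. The block added NT5E against YAPi (change -0.42, adjusted p = 3.4e-06) and FJX1 against TAZi (-1.21, adjusted p = 0.00022) to the calls, beside 11.4% and 10.5% of all genes called with it.

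CCN1 was at 8.74 and 13.2 TPM in YAPi_TAZi, where YAPi had 69.0 and 118 and TAZi 60.00 and 101. Its change was -3.35 against YAPi (SE 0.19, adjusted p = 7e-64) and -3.12 against TAZi (SE 0.19, adjusted p = 8.1e-55), and within replicates 1 and 2 it was -3.19 and -3.48 against YAPi. CCN2 was at 0.88 and 2.69 TPM, against 13.4 and 25.4 in YAPi and 7.17 and 18.4 in TAZi. Both secreted factors were thus lower in each YAPi_TAZi library than in any library of the separate knockdowns. The changes of CCN2 were -3.55 (SE 0.41, adjusted p = 7.8e-16) against YAPi and -2.87 (SE 0.41, adjusted p = 3.5e-10) against TAZi, and 6 and 17 reads in the 2 YAPi_TAZi libraries carry them. ANKRD1 had the steepest fall of the 10, to 2.09 and 4.33 TPM, against 43.0 and 89.4 in YAPi and 49.3 and 94.2 in TAZi. Its change was -4.43 (SE 0.31, adjusted p = 3.6e-43) against YAPi, or 21.6-fold, and -4.54 (SE 0.31, adjusted p = 1.8e-45) against TAZi.

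F3, which rose with YAPi in ER-Src, was at 39.1 and 70.7 TPM in YAPi_TAZi against 83.6 and 200 in YAPi and 96.1 and 192 in TAZi, with changes of -1.60 (SE 0.17, adjusted p = 4.8e-19) and -1.61 (SE 0.17, adjusted p = 4.9e-19). Within replicates 1 and 2 the F3 change against YAPi was -1.40 and -1.79. FJX1 was at 4.06 and 4.85 TPM against 16.4 and 20.5 in YAPi, a change of -2.01 (SE 0.36, adjusted p = 9.8e-07). AXL was at 75.4 and 113 TPM in YAPi_TAZi and 76.0 and 125 in TAZi, against 149 and 222 in YAPi, and so differed from YAPi (-1.15, SE 0.12, adjusted p = 6.6e-19) but not at the threshold from TAZi (-0.22, interval -0.45 to 0.02). CRIM1 differed from YAPi by -0.55 (adjusted p = 0.0089), a call that was lost with edgeR (0.017), TMM size factors (0.028), genes of a mean count under 10 left out (0.035), effective lengths as offsets (0.41) and without each of the 8 libraries (0.017 to 0.24). The other calls of these comparisons held without any of the libraries. ARHGEF17 was not called, with 33 and 39 reads in YAPi_TAZi, 43 and 36 in YAPi and 70 and 88 in TAZi. Within replicates 1 and 2 its change on normalized counts was 0.12 and 0.23 against YAPi and -0.83 and -0.71 against TAZi. Its mean TPM was lower in YAPi_TAZi than in YAPi, at 1.92 against 4.49. The effective length was 7417 and 6007 bases in YAPi_TAZi and 3695 and 1760 in YAPi.

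**Figure D3:**
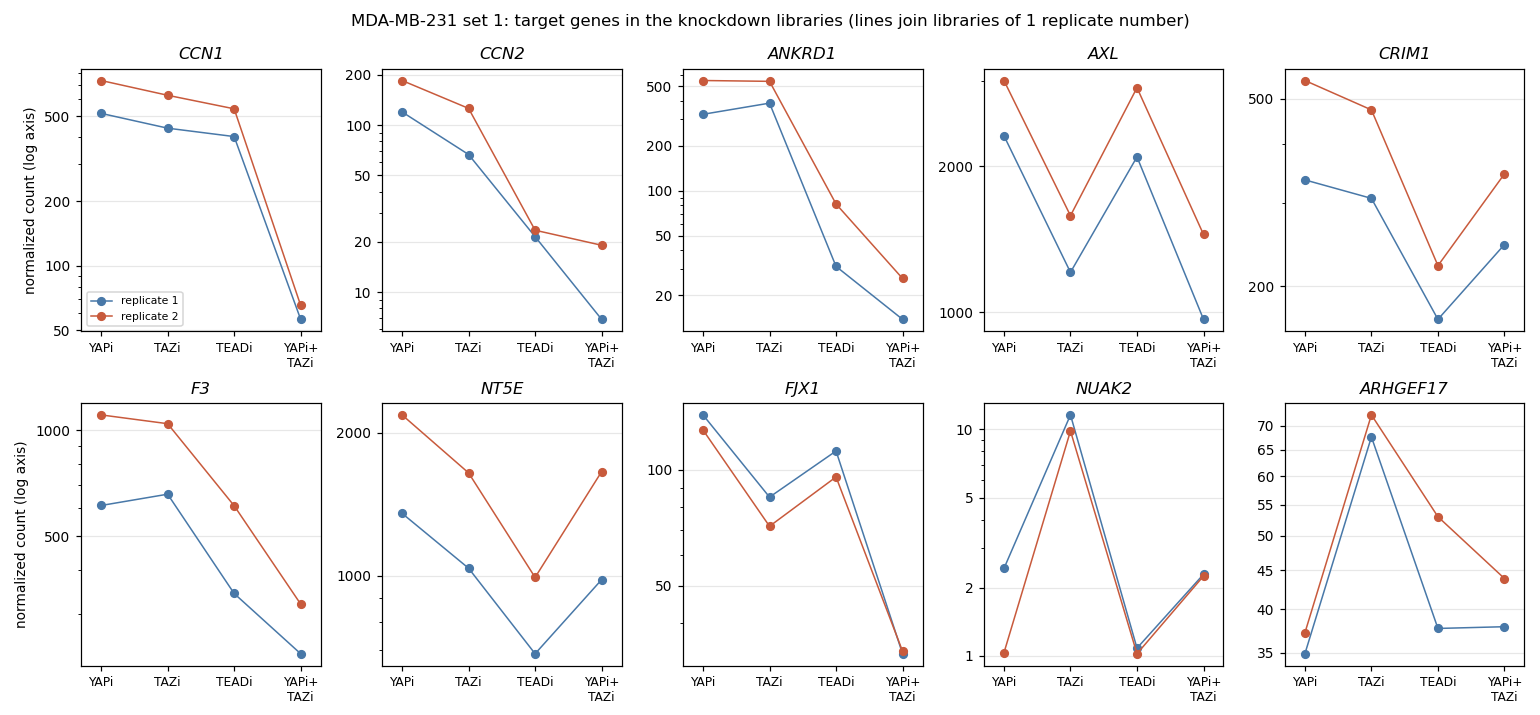
Normalized counts (log axis, each panel with its own range) of each target gene in the 8 set 1 knockdown libraries. Lines join the 4 libraries of replicate 1 (blue) and of replicate 2 (red), which differ in the length RSEM took off each transcript. CCN1 falls from 402 (TEADi) to 56.2 (YAPi_TAZi) in replicate 1 and from 542 to 65.3 in replicate 2.

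TEAD knockdown lowered CCN2, ANKRD1, CRIM1, F3 and NT5E against both YAPi and TAZi. Against YAPi 5 of the 10 fell and none rose, beside 7.41% of all genes called, 4.4% lower, and against TAZi 5 fell and AXL rose, beside 8.77%. CCN2 was at 2.28 and 3.20 TPM in TEADi and ANKRD1 at 3.95 and 13.2. The changes against YAPi were -2.73 for CCN2 (SE 0.35, adjusted p = 9.9e-13) and -2.95 for ANKRD1 (SE 0.23, adjusted p = 1.2e-32). CRIM1 was at 15.2 and 14.2 TPM, with a change of -1.14 (SE 0.17, adjusted p = 8.9e-10) against YAPi, and NT5E at 66.9 and 122 TPM, with a change of -1.05 (SE 0.14, adjusted p = 4.3e-12). These were the lowest NT5E values of the 4 knockdowns within each replicate number.

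CCN1 stood apart from its relative CCN2 in the TEADi libraries. At 57.5 and 79.9 TPM, CCN1 differed from YAPi by -0.39 (interval -0.67 to -0.12, adjusted p = 0.045, and 0.0028 with the block, which called 10.5% of all genes) and from TAZi by -0.17 (interval -0.44 to 0.11, adjusted p = 0.55). AXL, at 133 and 215 TPM, was close to YAPi (-0.09, interval -0.32 to 0.14) and above TAZi (0.84, SE 0.12, adjusted p = 2.1e-10). Without TAZi replicate 2 the calls against TAZi of CCN2 (adjusted p = 0.042), CRIM1 (0.016), F3 (0.031) and NT5E (0.025) were lost and 2 of the 10 genes remained called, ANKRD1 and AXL. F3 was also lost without TEADi replicate 1 against TAZi (0.02) and YAPi (0.024) and without YAPi replicate 2 (0.015). The CRIM1 calls were lost with effective lengths as offsets (adjusted p of 0.052 and 0.26), and edgeR did not call NT5E against TAZi (0.012).

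Direct comparison of YAPi_TAZi with TEADi called 6 of the 10 genes, beside 4.89% of all genes. CCN1 (-2.95, SE 0.19, adjusted p = 3.4e-48), FJX1 (-1.66, SE 0.36, adjusted p = 0.00019), ANKRD1 (-1.49, SE 0.34, adjusted p = 0.00037), AXL (-1.05, SE 0.12, adjusted p = 9.4e-16) and F3 (-0.77, SE 0.17, adjusted p = 0.0003) were lower in YAPi_TAZi. NT5E was higher in YAPi_TAZi by 0.64 (SE 0.14, adjusted p = 0.00022). CCN2 did not differ at the threshold (-0.82, interval -1.71 to 0.08), and CRIM1, at 0.59, was called with the block alone (adjusted p = 0.012 without it and 0.00061 with it, where 8.35% of all genes were called). With edgeR only CCN1 and AXL of the 6 remained called (adjusted p from 0.019 to 0.026 for the rest), and the same 2 remained without YAPi_TAZi replicate 2, where the rest had 0.015 to 0.075. Without TEADi replicate 2 the calls of ANKRD1 (0.24), F3 (0.086) and NT5E (0.012) were lost, without TEADi replicate 1 those of FJX1 (0.32) and NT5E (0.014), and without YAPi_TAZi replicate 1 those of ANKRD1 (0.026) and F3 (0.011).

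Between YAPi and TAZi in set 1, AXL alone was called, beside 2.9% of all genes, higher in YAPi by 0.93 (SE 0.12, adjusted p = 2.3e-12), and the call held without any of the libraries. In ER-Src, too, AXL was higher in YAPi than in TAZi, by 0.48 in TAM and 0.54 in ETH. With the block, which called 6.26% of all genes, NT5E (0.39, adjusted p = 2e-05) and FJX1 (0.77, adjusted p = 0.0086) were called as well. F3, which separated the 2 knockdowns in ER-Src, differed by -0.00 in set 1 (interval -0.31 to 0.30). CCN1 differed by 0.23 (interval -0.04 to 0.50) and ANKRD1 by -0.11 (interval -0.49 to 0.27).

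NUAK2 was counted at 1 to 12 reads per set 1 knockdown library, too few for an adjusted p from DESeq2. TAZi held 12 and 12 reads, YAPi 3 and 1, YAPi_TAZi 2 and 2 and TEADi 1 and 1. Summed over the libraries of a group and set against the total counts, TEADi had 0.0958 of the TAZi level (95% exact interval 0.011 to 0.386), YAPi_TAZi 0.217 (0.0546 to 0.631) and YAPi 0.172 (0.0433 to 0.499). The fitted log2 changes were -3.38 for TEADi against TAZi (SE 1.63, unadjusted p = 0.038), -2.56 for YAPi against TAZi (SE 1.46, unadjusted p = 0.079) and -2.26 for YAPi_TAZi against TAZi (SE 1.46, unadjusted p = 0.12). The counting intervals cover counting error only. The set 1 controls are given as levels without a comparison: CCN1 was at 337 and 369 TPM there, CCN2 at 91.6 and 98.4, ANKRD1 at 158 and 164, and NUAK2 at 2.35 and 2.65.

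**Figure D4:**
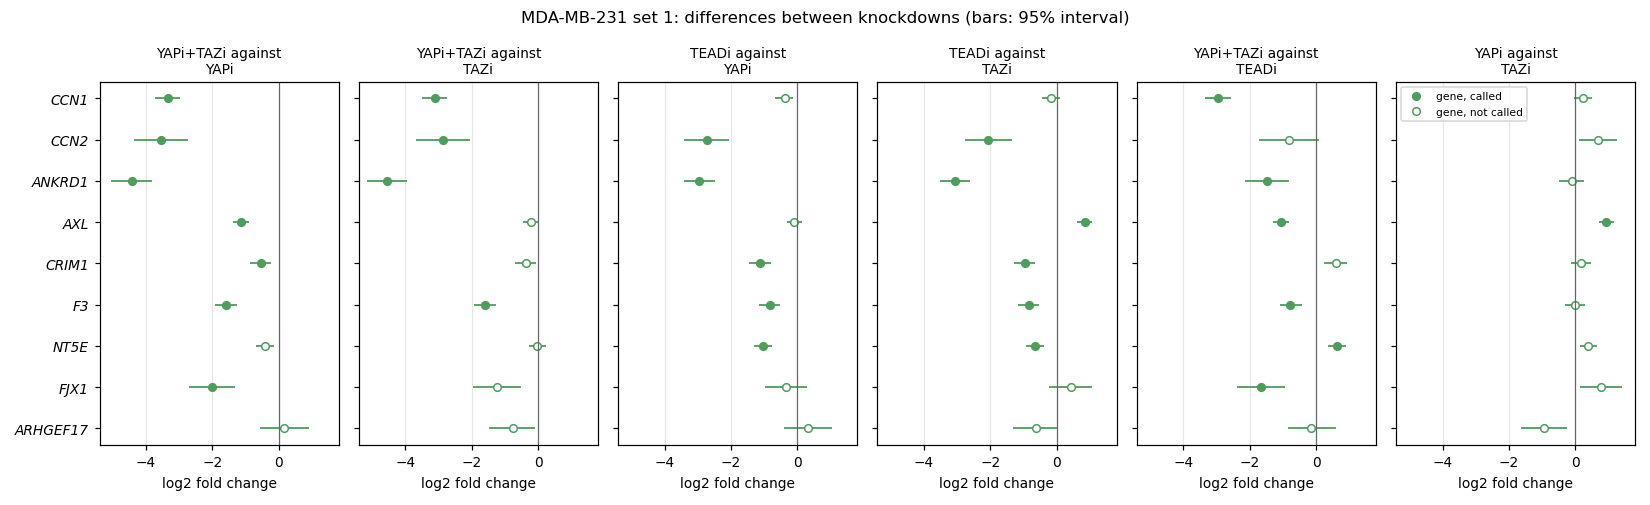
Log2 fold change on the count scale between the 4 set 1 knockdowns, for the 9 target genes with an adjusted p (NUAK2 left out). Bars are 95% intervals and filled points passed an adjusted p under 0.01, in the fit without the block. CCN1, CCN2 and ANKRD1 lie at -3.35, -3.55 and -4.43 for YAPi_TAZi against YAPi, and CCN1 at -0.39 for TEADi against YAPi.

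In MDA-MB-231 set 2, CCN1 alone among the 10 was called with JUNBi, beside 3.99% of all genes, 21 higher and 266 lower of 7187 tested. The estimates of the 10 ran from 0.16 to 2.27, with a median of 0.55 against -0.02 over all genes tested. CCN1 was at 376 and 431 TPM against 185 and 132 in the controls, a change of 1.07 (SE 0.17, adjusted p = 1.3e-07), and 172 and 221 TPM in STAT3i. Against STAT3i it was higher by 0.91 (SE 0.13, adjusted p = 7.2e-10), with F3 higher by 0.62 (SE 0.16, adjusted p = 0.0064), beside 1.48% of all genes. ANKRD1, which rose most in ER-Src with JUNBi, was at 55.5 and 78.1 TPM against 48.6 and 25.2 in the controls (0.59, interval 0.09 to 1.09, adjusted p = 0.12). NUAK2 had 156 and 78 reads in JUNBi against 15 and 11 in the controls and 19 and 23 in STAT3i (2.51 and 3.05, 0.60 and 0.36, and 0.65 and 0.83 TPM). It was too low for an adjusted p from DESeq2, which gave a change of 2.27 against the controls (SE 0.64, unadjusted p = 0.0004), and edgeR put its adjusted p at 0.12. With STAT3i none of the 10 was called, beside 0.237% of all genes. None of the 10 had an unadjusted p under 0.05 in DESeq2, beside 691 of the 22669 genes with a p. With edgeR none of all 13510 genes tested was called, so its result does not bear on the 10. The CCN1 call of JUNBi against the controls was lost with edgeR (adjusted p = 0.1) and without JUNBi replicate 1 (0.019) or 2 (0.055), and without control replicate 3 there were 3 genes called. F3 against STAT3i was lost with edgeR (0.026) and without each of the 4 libraries (0.063 to 0.77).

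The published target list of 22 genes holds 12 more, which were looked at in the same comparisons. Lower in set 1 YAPi_TAZi than in YAPi were 5 of the 12 (AMOTL2, CCDC80, PTPN14, RBMS3 and TGFB2), beside 5.1% of all genes, and lower than in TAZi 3 of the 12 (AMOTL2, CCDC80 and TGFB2), beside 4.47%. AMOTL2, an angiomotin family member that restrains YAP, fell by 1.29 and 1.87 (SE 0.21 and 0.21), and TGFB2, a transforming growth factor, fell by 1.97 and 2.12 (SE 0.27 and 0.27). AMOTL2 and CCDC80 were also lower in TEADi than in YAPi (-1.29 and -1.14) and TAZi (-1.87 and -1.17), where MYOF and PTPN14 were higher than in TAZi (0.65 and 0.60). In ER-Src, YAPi lowered MYOF, a membrane repair protein, and CCDC80 in TAM (-0.43 and -0.78) and ETH (-0.38 and -0.73), and TAZi lowered MYOF (-0.69 and -0.65). TGFB2 rose with JUNBi in TAM and ETH (1.8 and 2.03, SE 0.24 and 0.33), as ANKRD1 did, and IGFBP3 rose with STAT3i in TAM (1.47) and with JUNBi and TAZi in ETH (1.87 and 1.2). Also higher in ER-Src were AMOTL2 with TAZi in ETH (0.50), GADD45A with YAPi in ETH (0.89) and CCDC80 with STAT3i in TAM (0.65), and AMOTL2 and LATS2 in the TAM against the ETH controls (0.53 and 0.90). The calls were 2 of the 12 in TAM YAPi, 1 in TAM TAZi, 2 in TAM STAT3i, 1 in TAM JUNBi, 3 in ETH YAPi, 3 in ETH TAZi, 0 in ETH STAT3i and 2 in ETH JUNBi, to be read against 10.9%, 3.53%, 8.09%, 6.71%, 11.4%, 5.53%, 0.201% and 2.76% of all genes. With the block the calls were 1 in ETH YAPi (CCDC80) and 2 in ETH TAZi (MYOF and IGFBP3), so those of GADD45A and AMOTL2 and that of MYOF with YAPi were lost. Between knockdowns, IGFBP3 was lower in YAPi than in TAZi in TAM and ETH (-1.63 and -2.21) and GADD45A was higher in TAM (1.04). STAT3i had less TGFB2 than JUNBi in TAM and ETH (-2.54 and -2.50), with IGFBP3 at 1.04 in TAM and -1.69 in ETH, and with GADD45A and MYOF higher in TAM (1.09 and 0.44). The block raised the number called for STAT3i against JUNBi in ETH from 2 to 5 (AMOTL2, LATS2 and PTPN14 added). In set 1, TGFB2, PTPN14 and MYOF were lower in YAPi_TAZi than in TEADi (-1.75, -0.97 and -0.56), MYOF and PTPN14 were higher in YAPi than in TAZi (0.48 and 0.58), and the block added ASAP1 and AMOTL2 to the latter. In set 2 DESeq2 and edgeR called none of the 12 in any of the 3 comparisons. Against the controls edgeR called no gene at all with either knockdown, so its result there does not bear on the 12. MYOF, AMOTL2 and TGFB2 had an unadjusted p under 0.05 for JUNBi against the controls, with changes of 0.86, 0.71 and 0.94. Of all genes with a p, 2166 of 23373 had one under 0.05 there.

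Across the 10 ER-Src group means the target genes did not share 1 pattern, as a description with no test. On log2(TPM + 1), the closest member to CCN1 was CCN2 (Pearson r = 0.883), to CCN2 AXL (0.896), to ANKRD1 AXL (0.718) and to FJX1 CRIM1 (0.869), but the closest to F3 was NT5E at 0.151 and to NT5E CCN2 at 0.361. Among 6872 genes with a mean of at least 5 TPM, PDLIM1 (0.979) and TXNIP (0.968) were most like CCN1, COA8 (0.956) and ARF5 (0.952) most like CCN2, and MIR3936HG (0.963) and CLK4 (0.956) most like ANKRD1. These group means share libraries, treatment and library type, and no p is given.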

How the data were processed

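The 10 genes, the 12 further targets and the tests were chosen with earlier results of these data known. The authors aligned reads with STAR and quantified genes with RSEM (genome build hg38 per the labels), and deposited expected counts and TPM per gene for 36 libraries, without pooling replicates. Tables held 61471 identifiers, of which 746 non-Ensembl ones were left out. Symbols came from GENCODE v44 (93.1% of 60725 genes). Expected counts were rounded to whole numbers and tested with DESeq2 1.42.0 (R 4.3.3, two-sided Wald test, default independent filtering, Benjamini-Hochberg adjusted p under 0.01), with one run per comparison and one fit of the 8 set 1 knockdowns. The named genes were the 10, the further targets where called, the siRNA targets and the 2 genes most like CCN1, CCN2 and ANKRD1. Within-replicate ratios used a pseudocount of 0.5 normalized counts. Alternatives were edgeR 4.0.16, TMM size factors, genes of a mean count under 10 left out, effective lengths as offsets, one fit over all groups, the replicate block, leaving out each library, and TPM without 7 RNAs lacking a poly(A) tail. Deviations of same-numbered libraries from their group means correlated at r over 0.1 in every pair of groups in set 1 (0.483 to 0.536) and in ER-Src ETH (0.109 to 0.615), so the numbers were taken to pair these libraries, and in 3 of 10 pairs in TAM (-0.222 to 0.258), so there they were not. Scripts were tested on simulated data. Total expected counts of 1411304 to 19161700 per library set the precision of low genes.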

Additional observations from a re-analysis of the deposited data

Results flagged for a closer look

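For YAPi in ER-Src, CCN1 showed a different change in the 2 treatments, by the test of the difference itself. The log2 change in TAM minus that in ETH was -1.31 (SE 0.21, DESeq2 adjusted p = 5.7e-07), from -1.29 in TAM and 0.00 in ETH. Both YAPi libraries lay below both controls in each treatment on the TPM scale, at 5.77 and 4.95 against 14.47 and 15.18 in TAM and at 15.7 and 12.9 against 18.96 and 16.34 in ETH. The effective length of CCN1 was greater in YAPi than in the controls. It was 1973 and 2094 against 1744 and 1797 bases in TAM, and 2030 and 1964 against 1618 and 1550 in ETH.

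For TAZi in ER-Src, CRIM1 also showed a different change in TAM and ETH. The difference was -0.54 (SE 0.14, DESeq2 adjusted p = 0.0068), from -0.35 in TAM and 0.16 in ETH, neither of which was called by itself. Its libraries were at 18.5 and 21.5 TPM in TAM TAZi against 26.6 and 21.9 in the controls, and at 48.9 and 57.5 against 49.0 and 47.3 in ETH. The effective length of CRIM1 ranged from 2195 to 4571 bases over the ER-Src libraries, and its part in the difference was not tested beyond the offsets, under which the adjusted p was 0.049.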

How the results depend on the processing

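Groups of 2 libraries, and total counts of at most 2784605 in the set 1 knockdowns, limit what could be detected. For the log2 changes of single genes, edgeR gave the same direction and call in 59 cases and lost 19 calls, the filter at a mean count of 10 lost 1, TMM size factors lost 3, and effective lengths as offsets kept 59, lost 17, added 1 and reversed 1. The reversed one was CRIM1 in ETH YAPi, at -0.11. Leaving out 1 library kept 369, lost 95 and added 4. Of 180 mean levels, 117 moved by more than the replicate SD when TPM was recomputed without the 7 RNAs.

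The number of the 10 genes called moved by over 1.5 times as follows, and the cause was not tested. With edgeR it was 2 of 4 in TAM JUNBi, 1 of 2 in ETH YAPi and in ETH TAZi, 0 of 2 in ETH JUNBi, 0 of 1 for the TAZi interaction, 0 of 2 for ETH STAT3i against JUNBi, 2 of 6 for YAPi_TAZi against TEADi, 0 of 1 for set 2 JUNBi against Ctrli and 1 of 2 for set 2 JUNBi against STAT3i. Over all genes edgeR called, higher and lower, 313 and 539 in TAM JUNBi, 787 and 873 in ETH YAPi and 272 and 219 in ETH TAZi. It called 1 and 0 in ETH JUNBi, 0 and 5 for the TAZi interaction and 0 and 0 for ETH STAT3i against JUNBi. For YAPi_TAZi against TEADi these were 150 and 188. In set 2 they were 0 and 0 for JUNBi against Ctrli and 17 and 39 for JUNBi against STAT3i. TMM size factors gave 0 for the TAZi interaction, beside 27 genes higher and 48 lower of 3682. Effective lengths as offsets gave 2 in TAM JUNBi and 0 for the TAZi interaction. They gave 1 in ETH YAPi, ETH TAZi, ETH JUNBi, ETH STAT3i against JUNBi and set 2 JUNBi against STAT3i. Over all genes the offsets called, higher and lower, 259 and 422 in TAM JUNBi and 65 and 58 for the TAZi interaction. In ETH the calls were 689 and 1057 for YAPi, 342 and 590 for TAZi, 163 and 224 for JUNBi and 63 and 91 for STAT3i against JUNBi. For set 2 JUNBi against STAT3i they were 19 and 61. One fit over all groups gave 5 in place of 3 in TAM TAZi, 1 in ETH TAZi and 2 in place of 1 for the YAPi interaction. It gave 0 for the TAZi interaction, 1 in place of 0 for the STAT3i interaction, 4 for ETH STAT3i against JUNBi and 1 for set 2 JUNBi against STAT3i. Over all genes this fit called, higher and lower, 210 and 145 in TAM TAZi and 310 and 257 in ETH TAZi. For the interactions the calls were 14 and 35 with YAPi, 5 and 14 with TAZi and 109 and 201 with STAT3i. For STAT3i against JUNBi in ETH they were 1011 and 874, and for set 2 JUNBi against STAT3i 12 and 45.

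With the replicate block it was 1 in ETH YAPi and ETH TAZi, 2 for the YAPi interaction and 1 for the STAT3i interaction. It was 4 for ETH STAT3i against JUNBi, 3 for set 1 YAPi against TAZi and 1 for set 2 JUNBi against STAT3i. For the YAPi interaction the block called 36 of all genes higher and 62 lower, and for set 2 JUNBi against STAT3i 28 and 104. The shares for the rest are given above. In TAM, in comparisons across treatments and in set 2 the numbers were not taken to pair the samples. Deviations of same-numbered libraries still correlated at r = 0.157 between TAM YAPi and TAZi and 0.258 between TAM STAT3i and JUNBi. Between set 2 JUNBi and STAT3i r was 0.148, and between the ER-Src controls of the 2 treatments 0.101. In these comparisons the block ended the call of AXL in TAM YAPi (adjusted p = 0.11), CCN1 in TAM TAZi (0.029) and F3 in TAM JUNBi (0.011). It also ended those of AXL for TAM YAPi against TAZi, CCN2 for TAM STAT3i against JUNBi and F3 for set 2 JUNBi against STAT3i, among others. No paired analysis was possible because set 2 controls carry the numbers 3 and 4 and the knockdowns 1 and 2, for JUNBi and STAT3i against Ctrli.

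Leaving out each library in turn gave 1 to 3 in TAM STAT3i, 2 in TAM JUNBi, 1 in ETH YAPi and ETH TAZi, 0 to 1 in ETH STAT3i, 1 to 3 in ETH JUNBi, 0 to 1 for TAM against ETH controls, 1 to 2 for the YAPi interaction, 0 to 1 for the TAZi and STAT3i interactions, 1 to 2 for STAT3i against JUNBi in TAM and in ETH, 2 to 6 for TEADi against TAZi and for YAPi_TAZi against TEADi, 0 to 3 for set 2 JUNBi against Ctrli, 0 to 1 for set 2 STAT3i against Ctrli and 1 for set 2 JUNBi against STAT3i. Where a group was left with 1 library, it was assumed to vary like the other groups.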
